A study of Mus musculus with 59 samples.

Results

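The 8 genes described here encode the PSD-95 family of membrane-associated guanylate kinases, Dlg1 to Dlg4, and the SAPAP family, Dlgap1 to Dlgap4, which together link receptors to the deeper scaffold of the excitatory synapse. They were chosen by gene symbol, 4 genes of each family, and all 8 were found among the 18088 genes listed and passed the filter on low values. Prefrontal cortex was taken from C57BL/6J pups on postnatal day 25. Mutant pups (HT) carried 1 knock-in allele of Shank3, and the others were wild type (WT). Gene counts do not separate the alleles. From postnatal day 3 to 24, over 3 weeks, their dams' milk carried lithium, used to stabilize mood and an inhibitor of the kinase GSK-3, or fluoxetine, a serotonin reuptake blocker, or vehicle. The 6 arms were HT lithium, HT fluoxetine, HT vehicle, WT lithium, WT fluoxetine and WT vehicle, each of 5 females and 5 males except WT lithium, which had 4 females and 5 males. Each library is 1 pup of 59, and since the labels give no litters the p-values treat littermates as independent.

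Proteins of the PSD-95 family carry PDZ domains that hold the tails of NMDA receptor subunits, neuroligins and other membrane proteins, and a guanylate kinase domain that has lost enzyme activity and binds SAPAP proteins. SAPAP proteins in turn end in a PDZ ligand that is held by Shank proteins, so the order from membrane to cytoskeleton is receptor, PSD-95, SAPAP, Shank and Homer. Dlg4 encodes PSD-95 itself, the most abundant scaffold of mature excitatory synapses, Dlg2 encodes PSD-93, Dlg3 encodes SAP102, which prevails early in development, and Dlg1 encodes SAP97, which is found along the secretory path as well as at synapses. In mice, loss of Dlgap3 leads to compulsive grooming.

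Libraries held between 22984556 and 35969254 reads, and values are normalized counts, that is, reads divided by the library's size factor. All 8 excitatory neuron markers were present in every library, with a summed normalized count of 54731.1 to 128261.5. Markers of neighbouring regions varied between libraries. The sum of 8 olfactory bulb markers ran from 287.9 to 17237.1, that of 8 striatum markers from 3087.3 to 15580.6, and choroid plexus markers had a median sum of 86.8 with a highest value of 52695.3 in an HT vehicle library. By olfactory bulb markers over 2.5 times their mean, or under 5% mitochondrial reads, 6 libraries stood apart: HT lithium females 4 and 5, HT vehicle male 4, and WT fluoxetine females 1, 2 and 4. Results are given with and without these 6 where they changed a call. Shank3, the gene that carries the knock-in, had 7350.6 ± 1002.7 normalized counts in HT vehicle mice and 7455.8 ± 797.5 in WT vehicle mice (SD, n = 10 each), which is no check of the genotype, since reads of both alleles are counted together.

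Per kilobase of principal transcript, Dlg4 was by far the highest of the PSD-95 family. Its mean over the 59 libraries was 8203.6 normalized counts per kilobase, against 2258.8 for Dlg2, 1385.7 for Dlg3 and 1052.6 for Dlg1. This order held in 59 of 59 libraries at each of its 3 steps. Dlg4 made up 63.45% ± 1.99 of the family's summed level per kilobase (SD, n = 59), and no library fell below 59.03%. Among the SAPAP genes, Dlgap1 averaged 2876.1 and Dlgap3 averaged 2652.2 normalized counts per kilobase, followed by Dlgap4 with 1728.0 and Dlgap2 with 651.4. Dlgap1 and Dlgap3 are neighbours whose order was not fixed: Dlgap1 was higher in 39 of 59 libraries, while Dlgap3 exceeded Dlgap4 in 58 of 59 and Dlgap4 exceeded Dlgap2 in 59 of 59. These levels divide by 1 transcript of each gene, whose length need not be that of the isoforms expressed. In GRCm38, Dlg4 lies at chr11:70016942-70047522, Dlg3 at chrX:100767722-100818410, Dlgap2 at chr8:14095865-14847680, Dlgap3 at chr4:127169204-127237022 and Dlgap4 at chr2:156613705-156764363, all on the plus strand. Other genes listed in the table overlap Dlg2 (chr7:90476672-92449247) on its own strand, so its reads could be divided with them, and none overlaps the other 7.

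The end of the coding sequence shows what the SAPAP genes share for their role as Shank partners. The last 30 coding bases of each principal transcript are given on the plus strand of GRCm38, from the GENCODE transcripts, with the final 12 bases, which encode the PDZ ligand held by Shank proteins, in capitals. In the order listed, the stretches lie at chr17:70818202-70818231, chr8:14846676-14846705, chr4:127236336-127236365 and chr2:156762871-156762900.
Dlgap1: atctacatccccgaggcgCAGACCCGGCTC
Dlgap2: atctacatccctgaggccCAGACGCGGCTC
Dlgap3: atctacatccccgaggccCAGACCAGGCTG
Dlgap4: atttatgtccccgaggccCAGACCAGGCTC
Over whole principal transcripts, the longest run that any pair within a family shares letter for letter was 26 bases, found for Dlg2 with Dlg3, Dlg2 with Dlg4 and Dlgap1 with Dlgap3.

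**Figure D1:**
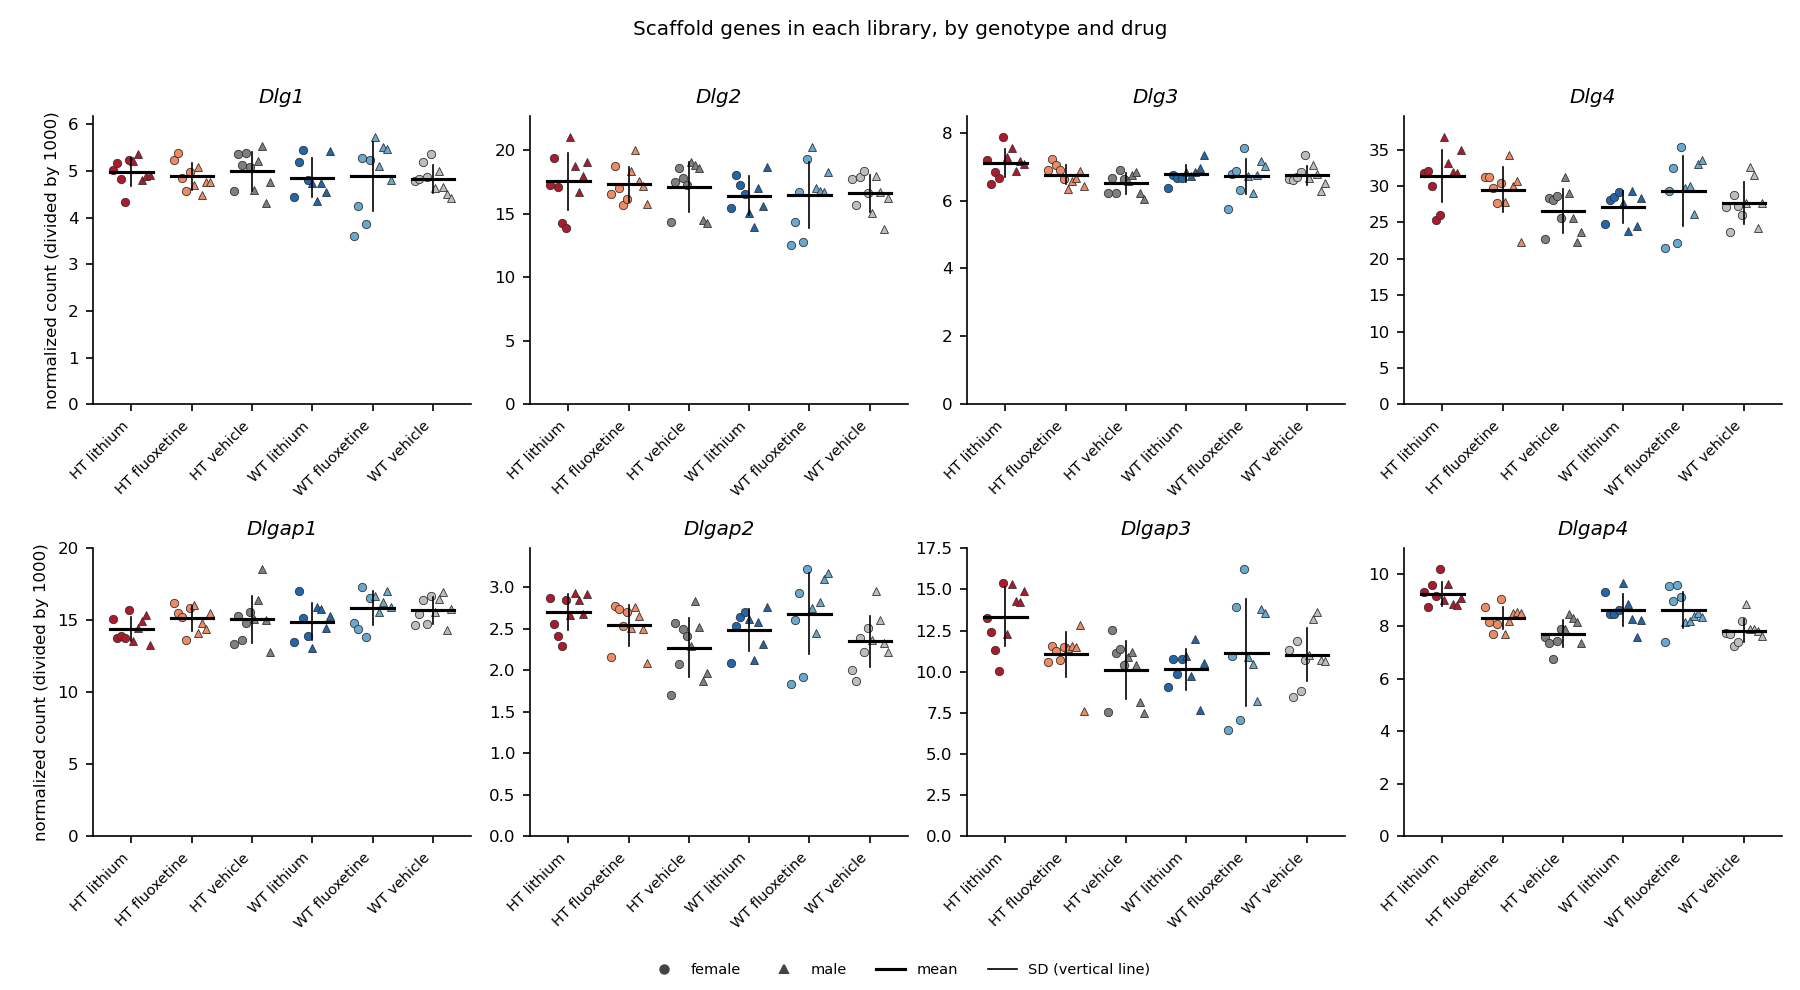
Normalized counts (divided by 1000, vertical axes from 0) of the 8 genes in each of the 59 libraries, by arm, with circles for females, triangles for males, horizontal bars for the mean and vertical lines for 1 SD. Dlgap4 in HT lithium lies between 8749.2 and 10183.0, above all 10 HT vehicle libraries, and 3 WT fluoxetine females lie low for Dlg1 and Dlg2.

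The comparison of lithium with vehicle in HT mice asks what the drug did in mutant pups. Of the 8 scaffold genes, 5 were higher in HT lithium mice and none was lower at an adjusted p of 0.05 (limma, Benjamini-Hochberg over 16599 genes). Of all genes tested, 20.3% passed, with 10.9% of all genes higher and 9.43% lower. The genes that rose were Dlgap3, Dlgap4, Dlgap2, Dlg4 and Dlg3. Dlg1, Dlg2 and Dlgap1 did not pass. The median log2 change of the 8 genes was 0.183, beside -0.0018 over all genes tested.

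In the PSD-95 family, Dlg4 ran from 25386.1 through a median of 31882.9 to 36725.2 normalized counts in HT lithium libraries, against 22260.9, 26846.7 and 31305.0 in HT vehicle libraries. The arms overlapped, yet 7 of 10 HT lithium libraries lay above the highest HT vehicle library. The log2 change of Dlg4 was 0.24 ± 0.08 (SE, adjusted p = 0.0179, limma), a rise of 18.3%. Dlg3 ran from 6483.7 through 7126.4 to 7869.4 in HT lithium libraries, against 6037.7, 6607.4 and 6902.0 in HT vehicle libraries. Here 6 of 10 HT lithium libraries passed the highest vehicle library, and the change of 0.12 ± 0.04 (adjusted p = 0.0139, limma) was the smallest of the 5. It no longer passed with quantile normalization (0.07, adjusted p = 0.0501), with the 4 groups of these arms fitted alone (0.12, 0.0518) or with a trend on transcript length removed (0.10, 0.0529). Dlg2 and Dlg1 had similar ranges in both arms. Dlg2 changed by 0.04 (95% interval -0.10 to 0.18) and Dlg1 by less than 0.01 in size (95% interval -0.11 to 0.11). Dlg4 took 64.81% ± 1.37 of the family's level per kilobase in HT lithium mice and 61.81% ± 1.52 in HT vehicle mice (SD, n = 10 each), and the mean ratio of Dlg4 to Dlg3 per kilobase was 6.21 ± 0.75 and 5.71 ± 0.54 in the same arms.

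In the SAPAP family, Dlgap4 gave the clearest separation. Its normalized counts ran from 8749.2 through 9116.6 to 10183.0 in HT lithium libraries, against 6748.0, 7738.3 and 8474.7 in HT vehicle libraries. All 10 HT lithium libraries lay above every HT vehicle library, a pattern seen for 0.494% of the genes tested. The change was 0.26 ± 0.04 (adjusted p = 1.52e-05, limma), or 19.7%. Dlgap3, whose product sits between PSD-95 and Shank at cortical and striatal synapses, had the largest change of the 8 genes. It ran from 10016.4 through 13745.4 to 15394.2 in HT lithium libraries, against 7458.1, 10657.0 and 12525.1 in HT vehicle libraries. The arms overlapped, with 6 of 10 HT lithium libraries above the highest HT vehicle library, and the change was 0.41 ± 0.12 (adjusted p = 0.0112, limma), or 32.8%. Dlgap2, the lowest of the family, ran from 2288.5 through 2756.4 to 2931.2 in HT lithium libraries, against 1701.7, 2351.0 and 2833.0 in HT vehicle libraries. Its change of 0.26 ± 0.08 (adjusted p = 0.0218, limma) no longer passed when HT vehicle female 1, male 4 or male 5 was left out, with changes of 0.21, 0.23 and 0.24 and adjusted p = 0.0690, 0.0569 and 0.0528.

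Dlgap1, also known as GKAP, did not follow the other 3 SAPAP genes. It ran from 13268.2 through 14167.7 to 15717.8 normalized counts in HT lithium libraries, against 12800.7, 15041.6 and 18565.3 in HT vehicle libraries. The HT lithium range lay wholly inside the HT vehicle range, and the change was -0.06 (95% interval -0.16 to 0.04). With quantile normalization it passed in the other direction from the rest, at -0.13 (adjusted p = 0.0234, limma). As shares of the family's level per kilobase, Dlgap3 stood at 37.16% ± 2.71 in HT lithium mice and 32.16% ± 3.53 in HT vehicle mice, and Dlgap1 at 32.13% ± 1.69 in HT lithium mice and 38.39% ± 2.11 in HT vehicle mice (SD, n = 10 each). Every HT lithium library had a lower Dlgap1 share, at most 34.87%, than the lowest HT vehicle library at 35.92%. Shares were not tested, and a share falls when another member of the family rises.

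**Figure D2:**
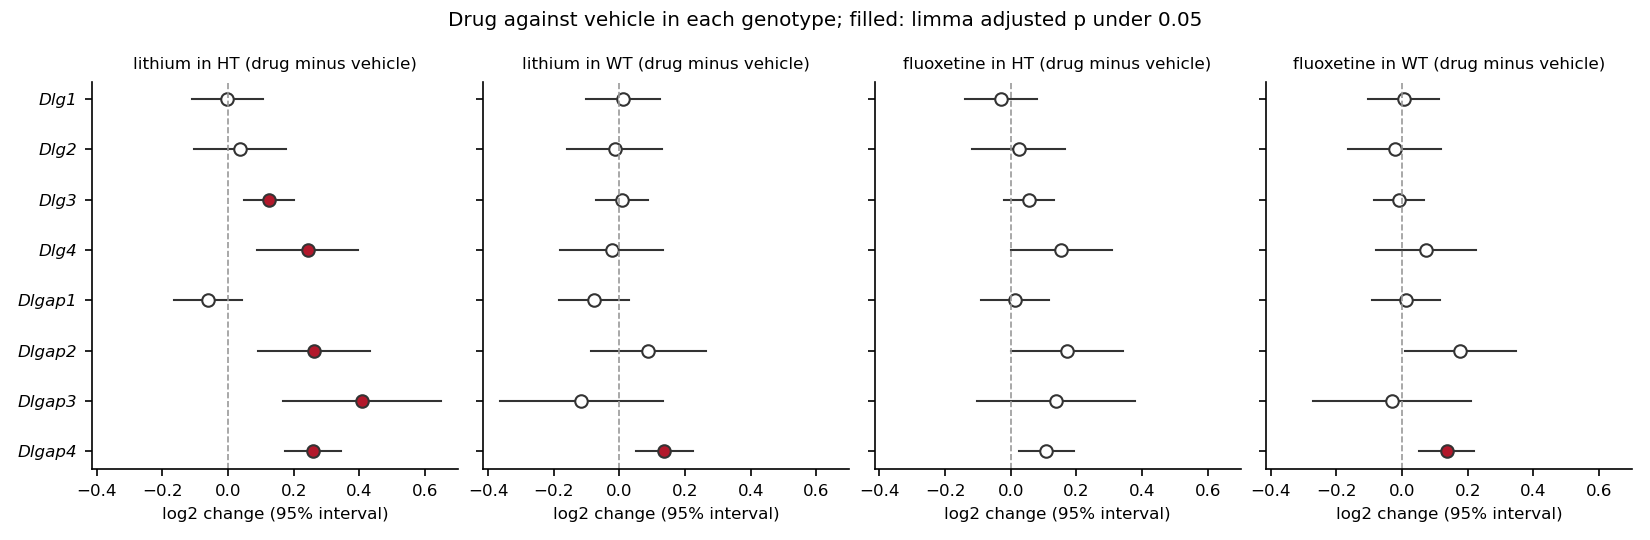
Log2 change of each gene with drug against vehicle (points, drug minus vehicle) and its 95% interval (lines), in HT and WT mice, filled where the adjusted p is under 0.05. Lithium in HT mice has 5 filled points, and Dlgap4 is the filled point with lithium and with fluoxetine in WT mice.

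The genes that rose with lithium in HT mice were also those with the highest GC content over the principal transcript, and this moved with the result across the whole table. The principal transcripts of the 5 genes that rose have 51.79% (Dlg3), 56.87% (Dlgap2), 57.91% (Dlg4), 59.39% (Dlgap4) and 63.94% GC (Dlgap3), whereas those of Dlg2, Dlg1 and Dlgap1 have 44.49%, 45.16% and 46.78%. The median of the tested genes is 50.0%. Over all tested genes, which are not independent replicates, the log2 change with lithium in HT mice correlated with GC content (Spearman rho = 0.476). The genes at either extreme of transcript GC content also differ in their coding sequence. The first 150 coding bases of the longest coding exon are given for the gene with the highest and the gene with the lowest GC content, with G and C in capitals, exon 3 of 12 of Dlgap3 at chr4:127194613-127194762 and exon 15 of 23 of Dlg2 at chr7:92375554-92375703, both on the plus strand of GRCm38.
Dlgap3: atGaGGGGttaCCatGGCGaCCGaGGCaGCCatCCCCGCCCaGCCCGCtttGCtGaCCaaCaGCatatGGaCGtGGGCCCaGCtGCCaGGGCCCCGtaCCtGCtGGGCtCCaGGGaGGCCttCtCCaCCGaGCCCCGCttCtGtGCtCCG
Dlg2: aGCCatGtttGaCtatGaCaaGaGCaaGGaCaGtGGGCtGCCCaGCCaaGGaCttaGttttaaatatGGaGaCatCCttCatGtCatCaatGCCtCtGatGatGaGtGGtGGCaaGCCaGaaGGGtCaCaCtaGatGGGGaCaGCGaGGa
Over the whole coding sequence, G and C make up 64.8% in Dlgap3 and 46.9% in Dlg2. Coding sequence alone does not divide the genes as whole transcripts do. Dlgap1, which did not pass, has 56.6% there, beside 56.6% in Dlgap2, 56.4% in Dlg4 and 53.3% in Dlg3, which rose.

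With a smooth trend on GC content removed within each library, Dlgap4 alone still passed in HT mice, with a change of 0.12 ± 0.04 (adjusted p = 0.04999, just under the threshold, limma). In that fit 12.1% of all genes passed, so 1 of 8 lies near the share of all genes. Dlgap3 then changed by 0.22 (adjusted p = 0.128), Dlgap2 by 0.15 (0.203), Dlg4 by 0.12 (0.307) and Dlg3 by 0.09 (0.0742). With trends on GC content and transcript length both removed, none of the 8 passed by limma, and Dlgap4 changed by 0.08 (adjusted p = 0.195). Transcript GC content also goes with gene function, and the share of the change that either one carries was not tested.

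**Figure D3:**
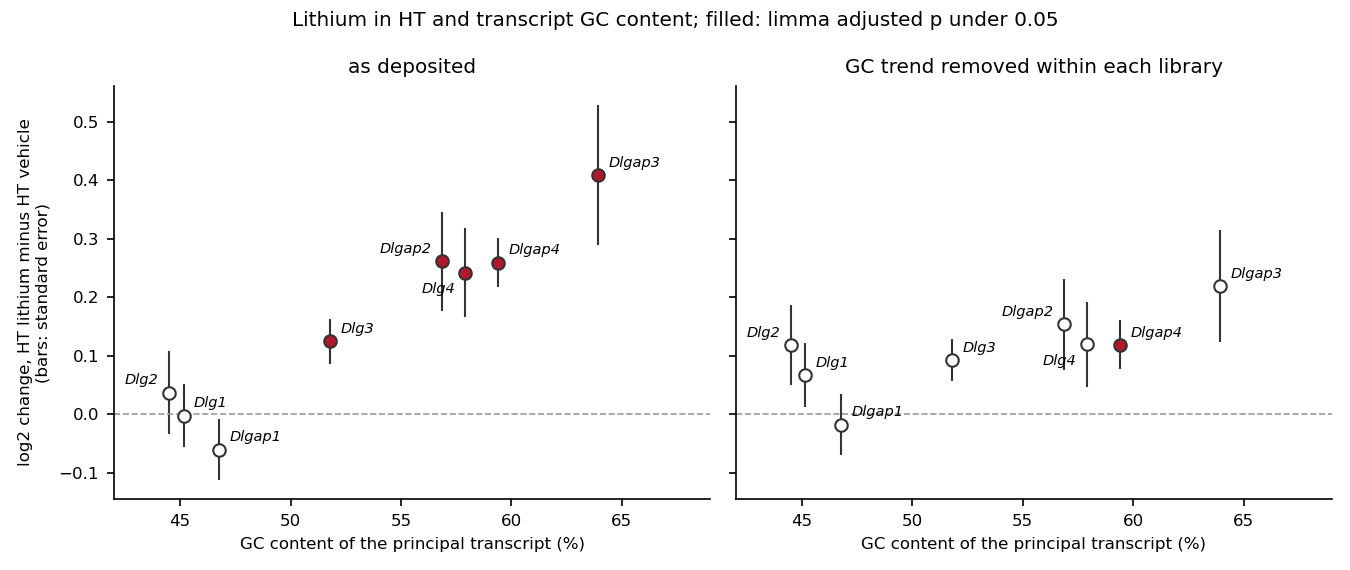
Log2 change of each gene with lithium in HT mice (HT lithium minus HT vehicle, vertical axis, bars are the standard error) against the GC content of its principal transcript (%), as deposited (left) and with the GC trend removed within each library (right), filled where the adjusted p is under 0.05. On the left the changes reach 0.41 at 63.94% GC and lie between -0.06 and 0.04 for Dlg2, Dlg1 and Dlgap1, and on the right Dlgap4 is the filled point.

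Markers of the tissue's makeup moved alongside these changes. Olfactory bulb markers had a median sum of 908.3 (287.9 to 12250.4) in HT lithium libraries and 2928.4 (352.2 to 12492.0) in HT vehicle libraries, with 0 of 8 markers passing by limma. Excitatory neuron markers had a median sum of 109437.8 (82617.6 to 121387.9) in HT lithium libraries and 99610.2 (68598.7 to 112188.4) in HT vehicle libraries, with 1 of 8 markers higher. Oligodendrocyte markers had a median sum of 94758.0 (46048.7 to 150568.9) and 136547.6 (67852.1 to 161146.2) in the same arms, with 0 of 8 passing. Striatum markers had a median sum of 7133.3 (4594.0 to 9926.3) and 5815.5 (3982.5 to 8256.4), again with 0 of 8 passing. Higher with lithium in HT mice were 3 of 8 astrocyte, 3 of 8 microglia, 2 of 6 oligodendrocyte precursor, 2 of 8 endothelial and mural and 1 of 8 interneuron markers, and none of these was lower. Of all genes tested, 10.9% were higher and 9.43% lower in this comparison. Over the 59 libraries, which share depth and dissection differences, Dlg4 and Dlgap3 each correlated with the olfactory bulb index at r = -0.744, whereas Dlgap4 did so at r = -0.042. With the excitatory neuron index, Dlg4 correlated at r = 0.846, Dlgap3 at 0.801 and Dlgap4 at 0.01. With the percentage of mitochondrial reads, by contrast, Dlgap4 had the strongest correlation of the 8 genes, at r = -0.506, against 0.109 for Dlg4 and -0.185 for Dlgap3. That percentage had a median of 6.68 (2.7 to 9.47) in HT lithium libraries and 7.07 (6.0 to 9.12) in HT vehicle libraries, and its part in the change of Dlgap4 was not tested. With the olfactory bulb index as a covariate, all 5 genes still passed, and the change of Dlgap3 was 0.27 and that of Dlgap4 0.26. No fit had the excitatory neuron index or the mitochondrial percentage as a covariate. Without the 6 libraries that stood apart all 5 passed as well, with changes of 0.38 for Dlgap3 and 0.25 for Dlgap4. Of the HT vehicle libraries, that fit dropped only male 4, with olfactory bulb markers at 2.955 times their mean. It kept male 5 and female 1 of that arm, at 2.412 and 2.397 times the mean. Leaving out any of these HT vehicle libraries singly ended the call of Dlgap2. Leaving them out together was not tested. In bulk tissue, fewer cells of a type and less RNA per cell cannot be told apart.

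With lithium in WT mice 1 of the 8 genes passed, which lies near the share of all genes tested, 12.8%, with 7.66% higher and 5.11% lower. Dlgap4 ran from 7570.2 through 8476.3 to 9658.7 normalized counts in WT lithium libraries, against 7232.3, 7764.3 and 8833.6 in WT vehicle libraries. The arms overlapped, although 8 of 9 WT lithium libraries lay above the WT vehicle median, and the change was 0.14 ± 0.04 (adjusted p = 0.0288, limma). It no longer passed without WT lithium female 1, male 1 or male 2, or WT vehicle female 3 or male 5, with changes of 0.11 to 0.13 in those fits. Nor did it pass with quantile normalization (0.12, adjusted p = 0.125), with the 4 groups of these arms fitted alone (0.14, 0.0506) or in females (0.19, 0.157) or males alone (0.08, 0.440). In this comparison the log2 change over all genes correlated with transcript length (Spearman rho = 0.335) and hardly with GC content (0.005). Dlgap4 passed with the GC trend removed (0.14, adjusted p = 0.0234) but not with the length trend removed (0.09, 0.192) or with both removed (0.09, 0.138). Dlgap3 ran from 7662.0 through 10512.6 to 11971.3 in WT lithium libraries, against 8469.4, 10867.5 and 13606.4 in WT vehicle libraries, and its change was -0.12 (95% interval -0.36 to 0.13). Dlg4 ran from 23799.3 through 28074.4 to 29354.1 in WT lithium libraries, against 23641.1, 27428.2 and 32669.7 in WT vehicle libraries. Its change was -0.02 (95% interval -0.18 to 0.13), and the median over the 8 genes was -0.003.

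Whether lithium acted differently in the genotypes was tested directly by the interaction, HT change minus WT change. No member passed by limma, edgeR or DESeq2, and 0.00602% of all genes passed by limma. At an unadjusted p under 0.05 were 4 of the 8 members and 2020 of the 16599 genes tested. The interaction was largest for Dlgap3 at 0.53 (95% interval 0.18 to 0.87, adjusted p = 0.234) and came to 0.27 for Dlg4 (0.05 to 0.48, adjusted p = 0.312). Dlgap4 had 0.12 and Dlg3 had 0.12, and neither passed. In males alone Dlgap3 did pass, at 0.81 (adjusted p = 0.0350, limma), in a fit where 3.79% of all genes passed. Olfactory bulb markers in HT males stood at 0.081 to 0.322 times their mean with lithium and 0.215 to 2.955 with vehicle. Their part in this result was not tested. Over all genes the interaction correlated with GC content at rho = 0.505, and with the GC trend removed it was 0.31 for Dlgap3 (adjusted p = 0.732).

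Fluoxetine moved few of these genes. In HT mice none of the 8 passed by limma, edgeR or DESeq2, against 0.277% of all genes. At an unadjusted p under 0.05 were 1933 of the 16599 genes tested and 3 of the 8. Those 3 were Dlgap4 at 0.11 (95% interval 0.02 to 0.19), Dlg4 at 0.15 (0.00 to 0.31) and Dlgap2 at 0.17 (0.00 to 0.34). In WT mice 1 of 8 passed, where 5.66% of all genes did, 3.54% higher and 2.11% lower. Dlgap4 ran from 7383.4 through 8460.2 to 9574.3 normalized counts in WT fluoxetine libraries, against 7232.3, 7764.3 and 8833.6 in WT vehicle libraries. The change was 0.14 ± 0.04 (adjusted p = 0.0444, limma), with overlapping arms. The call was also lost with the GC trend removed (0.10, adjusted p = 0.120), with the length trend removed (0.11, 0.123) and with the 4 groups of these arms fitted alone (0.14, 0.134). Leaving out a single library ended this call for 16 of the 20 libraries of these arms, with changes of 0.12 to 0.14 and adjusted p between 0.0517 and 0.105 in those 16 fits. The exceptions were WT fluoxetine female 1 and male 1, WT vehicle female 5 and WT vehicle male 1. The 2 drugs were each compared with the same vehicle libraries, so the changes of Dlgap4 in WT mice, 0.14 with each drug, share their reference.

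Without the 6 libraries that stood apart, 3 of which are WT fluoxetine females, 3 members rose with fluoxetine in WT mice, where 1663 of the 16599 genes then passed, against 939 with every library. Dlgap2 then changed by 0.34 (adjusted p = 0.00665), Dlg4 by 0.22 (adjusted p = 0.0427) and Dlgap4 by 0.15 (adjusted p = 0.0264, limma). With every library the change of Dlgap2 was 0.18 (95% interval 0.01 to 0.35) and that of Dlg4 was 0.07 (-0.08 to 0.22). The WT fluoxetine libraries were widely spread. Dlg4 ran from 21423.5 through 29875.2 to 35351.5 normalized counts in WT fluoxetine libraries, against 23641.1, 27428.2 and 32669.7 in WT vehicle libraries. Dlgap3 ran from 6423.8 through 10909.7 to 16244.1 in WT fluoxetine libraries, against 8469.4, 10867.5 and 13606.4 in WT vehicle libraries. Its 2 lowest values came from WT fluoxetine females 1 and 4, with 6423.8 and 7055.2, which had olfactory bulb markers at 3.548 and 4.102 times their mean. The part of the olfactory bulb in these values was not tested.

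Between HT and WT mice none of the 8 genes passed in any drug arm by limma, edgeR or DESeq2, and 0.0% of all genes passed under vehicle, lithium or fluoxetine by limma. Under vehicle, where 1074 of all genes had an unadjusted p under 0.05 and DESeq2 called 6, none of the 8 genes did. Changes under vehicle lay between -0.13 for Dlgap3 (95% interval -0.37 to 0.11) and 0.05 for Dlg1 (-0.06 to 0.16). Under lithium 1839 of the 16599 genes tested had an unadjusted p under 0.05, and so did 3 of the 8. Those 3 were Dlgap3 at 0.39 (0.14 to 0.64), Dlg4 at 0.20 (0.05 to 0.36) and Dlgap4 at 0.10 (0.01 to 0.19). Under fluoxetine none of the 8 had an unadjusted p under 0.05, with changes between -0.06 and 0.08. Genotype by fluoxetine, the change with fluoxetine in HT minus that in WT mice, passed for none of the 8 genes and for 0.0% of all genes by limma, with 0 of the 8 at an unadjusted p under 0.05 and none called by edgeR or DESeq2. Its values lay between -0.03 and 0.17.

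The sexes were compared over all arms, and the effects of each drug and of genotype under vehicle were compared between them. Over all arms, none of the 8 genes differed between females and males by limma, with a change of at most 0.08 in size (Dlgap2, lower in females), where 0.217% of all genes passed. None had an unadjusted p under 0.05 and none was called by edgeR or DESeq2. With lithium in HT mice, Dlgap3 changed by 0.24 in females alone and 0.58 in males alone, and Dlg4 by 0.12 in females and 0.36 in males. In males alone all 5 genes passed, where 16.2% of all genes did. In females alone, where 7.02% of all genes passed, Dlgap4 did, with 0.34 (adjusted p = 0.00386, limma) in females and 0.18 in males. The difference between the sexes, female minus male change, did not pass for any of the 8 genes by limma, where 0.012% of all genes passed, and none had an unadjusted p under 0.05. It was -0.34 for Dlgap3 (95% interval -0.82 to 0.14), -0.24 for Dlg4 (-0.55 to 0.06) and 0.17 for Dlgap4 (unadjusted p = 0.0518). Olfactory bulb markers stood at 0.081 to 0.322 times their mean in HT lithium males and 0.215 to 2.955 in HT vehicle males. In females the ranges were 0.228 to 2.873 and 0.112 to 2.397. The same sex difference had a median of 3.534 over these 8 markers, with 0 passing by limma. Their part in the changes of each sex was not tested. Neither lithium in WT mice, fluoxetine in HT mice nor genotype under vehicle showed a sex difference in any of the 8 genes by limma, edgeR or DESeq2, with 0 of 8 at an unadjusted p under 0.05, and at most 0.00602% of all genes passed by limma.

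Fluoxetine in WT mice was the 1 comparison with a sex difference among the scaffold genes. There 8.66% of all genes passed, 3.58% higher and 5.08% lower, so 1 of 8 lies near the share of all genes. For Dlg1 the female change minus the male change was -0.38 ± 0.11 (adjusted p = 0.0231, limma). The 5 WT fluoxetine females had 3603.3, 4256.3, 5280.4, 3871.2 and 5248.1 normalized counts of Dlg1, against 4782.7 to 5370.2 with a median of 4871.5 in WT vehicle females. WT fluoxetine males ran from 4805.4 through 5484.1 to 5729.0, against 4427.1, 4641.6 and 5002.6 in WT vehicle males. The 3 low females are the libraries with high olfactory bulb markers, numbers 1, 2 and 4, and the other 2 lay within the vehicle range. Without the 6 libraries that stood apart, the difference was -0.12 (adjusted p = 0.561). The call was also lost without WT fluoxetine female 1, 2 or 4 or male 1, at -0.31, -0.37, -0.34 and -0.35, and with the GC trend removed, at -0.25 (adjusted p = 0.267). Dlg2 had a similar difference of -0.37 ± 0.14 that did not pass (adjusted p = 0.0844). Over all genes the sex difference with fluoxetine in WT mice correlated with GC content (Spearman rho = 0.512). With the GC trend removed, 0 of 16599 genes passed by limma in this comparison, with 2595 at an unadjusted p under 0.05.

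**Figure D4:**
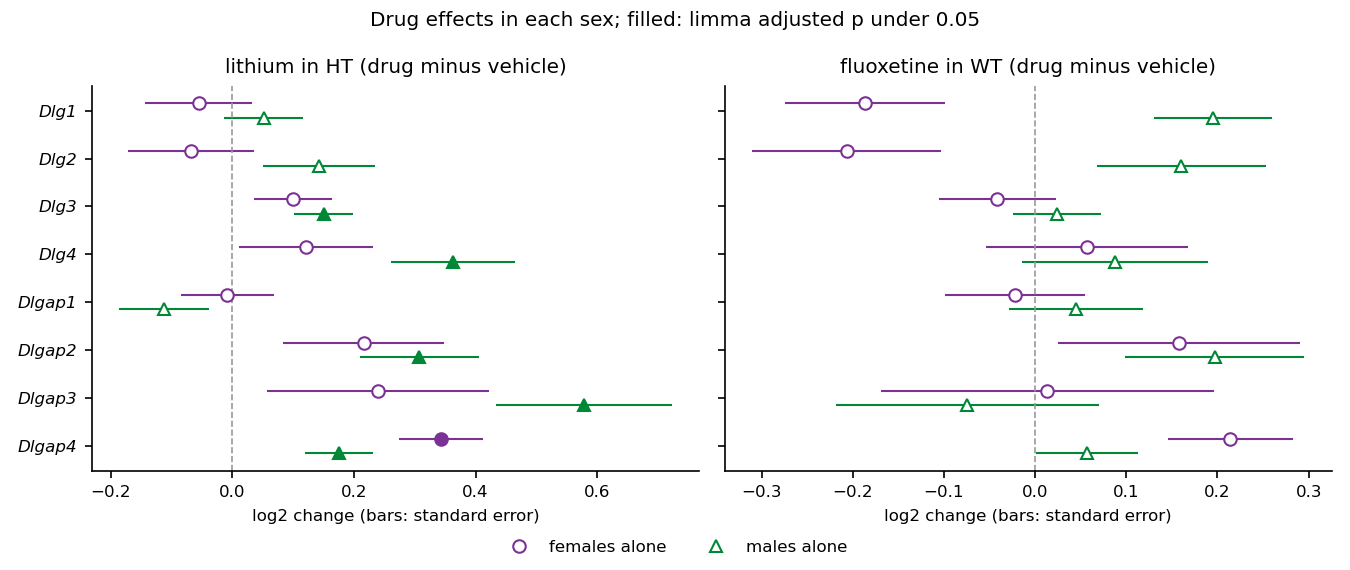
Log2 change with drug against vehicle in females alone (circles) and males alone (triangles), for lithium in HT mice (left) and fluoxetine in WT mice (right), with bars for the standard error and filled symbols where the adjusted p is under 0.05. Males carry 5 filled symbols and females 1 with lithium in HT mice, and Dlg1 lies on opposite sides of 0 with fluoxetine in WT mice.

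The 8 genes did not vary as 1 unit. Within groups, that is, after the mean of each of the 12 groups was subtracted, Dlg2 and Dlg4 correlated at r = 0.83, Dlgap2 and Dlgap3 at 0.82 and Dlg4 and Dlgap3 at 0.81 over the 59 libraries. Dlgap1 was more weakly tied to the others, from 0.10 with Dlgap4 to 0.56 with Dlg1. Dlgap4 stood apart, with r from -0.13 with Dlg2 to 0.39 with Dlg3. Libraries share depth and tissue composition, so these values describe the set and carry no test.

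Over all 59 libraries the gene most like Dlgap3 was Shank3, the next scaffold in the chain, with r = 0.9323, followed closely by Jph4 (0.925) and Agap3 (0.9194). The correlations given here include differences between arms and in tissue composition, and carry no test. Shank3 itself ran from 7366.5 through 9992.7 to 11196.5 normalized counts in HT lithium libraries, against 5748.3, 7756.0 and 8247.9 in HT vehicle libraries. The gene most like Dlg4 was Camk2a, which encodes the alpha subunit of the postsynaptic kinase CaMKII, with r = 0.9142, then Pld3 and Pde2a. Dlg2 was most like Lsamp (0.907), a neuronal adhesion molecule. Dlg3 was most like Jakmip1 (0.8302) and Dlgap2 was most like Unc13a (0.8945), a priming factor of synaptic vesicles. The best match of Dlgap4 was Actn4 (0.8652), an actin crosslinker. Dlgap1 had no close match, its best being Nalcn (0.6593), a sodium leak channel.

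**Figure D5:**
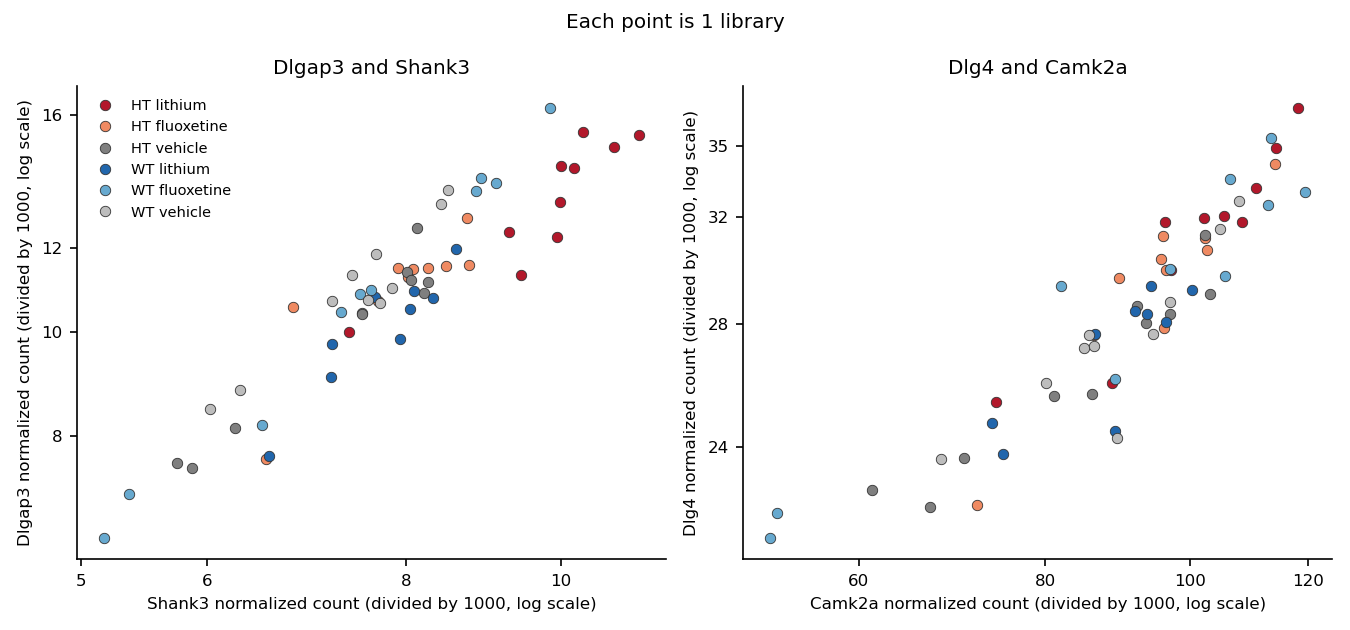
Normalized counts (divided by 1000, log axes) of Dlgap3 against Shank3 (left) and Dlg4 against Camk2a (right), 1 point for each of the 59 libraries, coloured by arm. Both clouds follow a line, with r = 0.9323 and r = 0.9142 on the log2 scale, and most HT lithium libraries lie at the upper end for Dlgap3 and Shank3.

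The binding partners of the 2 families were read beside them in the same fits. With lithium in HT mice, 4 of 7 cytoplasmic partners of PSD-95 were higher and none lower, with a median change of 0.199, where 10.9% of all genes were higher and 9.43% lower. Begain, which binds the guanylate kinase domain, rose by 0.35 ± 0.09 (log2 scale, SE; adjusted p = 0.00445, limma), or 1.27-fold. Iqsec2, an exchange factor for Arf GTPases, rose by 0.26, Baiap2 (IRSp53) by 0.26 and Sipa1l1 (SPAR) by 0.16. Of 11 partners and regulators of SAPAP proteins, 3 were higher and none lower, and they were the Shank genes: Shank1 at 0.62, Shank3 at 0.43 and Shank2 at 0.41. Camk2a, Camk2b, Homer1, Plk2 and the other members of that list did not pass, and the list's median change was 0.209. The partner values for lithium in HT mice come from the fit with no trend removed. Over all genes the change in this comparison correlated with GC content (Spearman rho = 0.476). The part of GC content in the changes of the partners was not tested.

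Membrane partners were mixed. Of 20 tested, 4 were higher and 2 lower with lithium in HT mice, with a median of 0.147. In this comparison 10.9% of all genes were higher and 9.43% lower. The neuroligin Nlgn3 rose by 0.28, the adhesion receptor Adgrb1 by 0.32 and Lrfn2 by 0.35, whereas Erbb4, the neuregulin receptor of interneurons, fell by 0.24. Other membrane-associated guanylate kinases gave 5 higher and 1 lower of 14 tested (median 0.056), among them Mpp3 at 0.32, Magi1 at 0.16, Tjp1 at 0.15 and Mpp2 at 0.14. Of 13 genes for palmitoylation, turnover and RNA control of PSD-95, 1 was higher and 2 lower (median -0.042). These counts lie near the shares of all genes, and no list was tested as a set. The palmitoyltransferase Zdhhc7 rose by 0.21, the depalmitoylase Abhd17b fell by 0.25, and Ptbp2, which represses an exon that Dlg4 messenger RNA needs for stability, fell by 0.28.

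With lithium in WT mice, 1 of 7 cytoplasmic partners, 2 of 11 SAPAP partners, 3 of 20 membrane partners, 3 of 14 other guanylate kinases and 0 of 13 control genes were higher, and none was lower. Of all genes 7.66% were higher and 5.11% lower, 12.8% in all. In lists this small the counts lie on both sides of these shares, and no list was tested as a set. The genes were Baiap2, Homer1 and Shank2, Lrfn2, Kcna1 and Nlgn3, and Tjp1, Mpp3 and Mpp4. Homer1, which binds Shank, rose by 0.45 in WT lithium mice and Baiap2 by 0.25. With fluoxetine in HT mice, where 0.277% of all genes passed, Nlgn3 (0.27) and Shank1 (0.35) passed and no other gene of these lists did. Neither passed with the 4 groups of these arms fitted alone or with the length trend removed, fits in which 0 of 16599 genes did by limma, with 2033 and 1733 at an unadjusted p under 0.05. With fluoxetine in WT mice, where 3.54% of all genes were higher, 1 of 11 SAPAP, 1 of 20 membrane and 1 of 7 cytoplasmic partners passed as higher. So did 2 of 14 other guanylate kinases. Shank1 (0.27, adjusted p = 0.0484), Nlgn3 (0.18, 0.0457) and Tjp1 (0.14, 0.0470, limma) lay just under the threshold. Mpp2 changed by 0.19 (0.00770) and Sipa1l1 by 0.17 (0.0121, limma). Whether these calls hold with a library left out was not tested. Under vehicle, none of the partners differed between HT and WT mice by limma.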

How the data were processed

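Prefrontal cortex RNA of 59 mice was sequenced with a stranded messenger RNA kit, per the labels' protocols. Per the submitters' processing notes, the authors used Salmon 0.11.2, DESeq2 1.19.11, R 3.6.0 and the build GRCm38. The deposited values are a signal, counts per gene after division by a size factor for each library (0.783 to 1.245). Salmon shares reads between similar transcripts by estimation. Dividing by the smallest step gave whole reads for 100.0% of values within 0.001. Totals ran from 22984556 to 35969254 reads, and 18077 gene IDs of 18088 matched a symbol in GENCODE.

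Count tests had been planned for raw counts. Since the values are normalized, limma 3.58.1 in R 4.3.3 (trend, robust) was fitted to log2(normalized count + 1) of 16599 genes with a mean of at least 10, with a mean for each of 12 groups and 47 residual degrees of freedom, so fold changes of low genes are understated. Tests were two-sided, with Benjamini-Hochberg adjustment over all genes in each of 15 comparisons at 0.05. Drug and genotype comparisons weight the sexes equally. Intervals are 95% from the moderated standard error. SD values are between libraries. The steps were tested on simulated counts.

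The 8 genes, the lists and the tests were chosen with earlier results of these data known. Named are the 8 genes, up to 4 genes with the smallest p of each partner list past the threshold, and the 3 genes most correlated with a member. A partner and the best match of Dlg1 are not reported here. Alternatives were edgeR 4.0.16 (quasi-likelihood) and DESeq2 1.42.0 on the recovered reads, quantile normalization, pseudocounts of 0.5 and 5, no filter, fits of only the groups compared, a replicate block, removal of loess trends (span 0.5) on GC content or on transcript length, olfactory bulb or striatum index as covariate, each sex alone and each library left out. A fit without 6 libraries and 1 with both trends removed were added after seeing the data. GC content and length were those of the principal GENCODE transcript, known for 99.93% of tested genes. Replicate numbers recur in every group, but libraries of the same number did not deviate together (median r = -0.009 over 319 pairs), so they were not taken as pairs.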

Additional observations from a re-analysis of the deposited data

Results flagged for a closer look

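In 3 of 96 combinations of a gene and a group, a single library lay far from the other 4 of its group by Dixon's test, and chance alone flags about 1 group in 20. Dlgap3 had 7603.2 normalized counts in HT fluoxetine male 5, against 11455.4 to 12806.3 in the other 4 males of that group, and this library had olfactory bulb markers at 2.389 times their mean. Dlgap4 had 7383.4 normalized counts in WT fluoxetine female 1, against 8944.1 to 9574.3 in the other 4 females, and the olfactory bulb markers of that library stood at 3.548 times their mean. Dlgap4 had 8833.6 normalized counts in WT vehicle male 1, against 7644.1 to 7900.6 in the other 4 males.

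The effect of fluoxetine on Dlg1 in WT mice differed between the sexes by the interaction test, at -0.38 (female minus male change), with -0.19 in females alone and 0.20 in males alone. Neither sex alone passed (adjusted p = 0.189 and 0.0935, limma). In the interaction test 8.66% of all genes passed, so 1 of 8 scaffold genes lies near that share.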

How the results depend on the processing

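With lithium in HT mice, 5 members passed. The count was 1 with the GC trend removed, 0 with the replicate block and the GC trend removed, 1 in females alone and 0 with GC and length trends removed, and it stayed at 5 in every fit with 1 library left out except the 3 without HT vehicle female 1, male 4 or male 5, with 4. Single members shifted in other fits too. Dlg3 did not pass with quantile normalization, with only the groups compared or with the length trend removed. Dlgap1 passed as lower with quantile normalization. With lithium in WT mice, 1 passed. It was 0 with quantile normalization, with only the groups compared, with the length trend removed, in females alone, in males alone and with GC and length trends removed, and 0 to 1 with 1 library left out. With fluoxetine in WT mice, 1 passed. It was 0 with quantile normalization, only the groups compared, the GC trend removed, the replicate block and the GC trend removed, the length trend removed, the striatum index as covariate, females alone, males alone and both trends removed, 3 without the libraries that stand apart, and 0 to 1 with 1 library left out. Genotype by lithium had 0 members, and 1 in males alone. Sex by fluoxetine in WT mice had 1, and 0 with only the groups compared, with the GC trend removed, with the replicate block and the GC trend removed, without the libraries that stand apart and with both trends removed, and 0 to 2 with 1 library left out. The cause of these differences was not tested.

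The replicate block by itself left the counts at 5, 1 and 1 for lithium in HT, lithium in WT and fluoxetine in WT mice and changed no call of a member. Only 10 of 59 libraries matched best with their own number in another group. No called value changed sign under any alternative run, while 187 of 1810 values that did not pass did so. Litters are not labelled, so litter and drug cannot be told apart. In the fluoxetine comparison in WT mice, 3 of 5 treated females had olfactory bulb markers over 2.5 times their mean.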
